A study of Drosophila melanogaster with 9 samples.

Results

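Ectopic Abrupt was compared with the marker alone in cells sorted from the body wall of Drosophila melanogaster larvae, using the 3 arrays labelled Ab ME and the 3 labelled Control, which are 6 of the 9 arrays measured. Control larvae had the genotype +/GAL4[21-7], UAS-mCD8:GFP, and Ab ME larvae carried UAS-abL in addition. Both groups therefore share the driver and the membrane marker mCD8:GFP. The labels describe GAL4[21-7] as active in every class of dendritic arborization (da) neurons. Each array came from a biological replicate of 80 pooled body walls of larvae at the wandering stage of the third instar raised at 25 °C, digested with protease, from which cells positive for the marker were collected. The remaining 3 arrays, labelled Kn ME for misexpression of Knot from UAS-knL:HA, entered only the estimate of the spread.

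Da neurons are sensory neurons that spread flat dendritic arbors below the larval epidermis, in classes from I to IV that rise in complexity. Abrupt is a BTB zinc finger transcription factor normally found in class I neurons, where it is known for keeping arbors simple. Knot acts in class IV neurons. The comparison addresses which transcript levels differ between marker-positive cells sorted from larvae with and without UAS-abL. Markers of blood cells and muscle were also bright on these arrays, as given below, so the differences cannot be assigned to neurons. No tested probe set was named ab in the annotation used here, so the misexpressed gene could not be followed. For kn, the brighter of 2 probe sets read 0.60, 0.53 and 0.68 on the arrays labelled Kn ME. The Control arrays gave 1.00, 3.75 and 3.53 and the Ab ME arrays 0.53, 0.66 and 0.66. The dimmer probe set lay between 0.91 and 1.04 on the arrays labelled Kn ME and between 0.85 and 1.12 on the Control arrays. kn was therefore not higher on the arrays labelled for its misexpression. Whether its probes lie within the transgene was not tested, so these values cannot check that label. Between Ab ME and Control the brighter probe set differed by -2.15 without passing (limma adjusted p = 0.0534). The sections that follow describe functions other than those of the single largest differences.

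Values are log2 expression units and differences are Ab ME minus Control. A probe set passed when the moderated test of limma gave a Benjamini-Hochberg adjusted p under 0.05 over 18769 probe sets. Of these, 2622 passed (14.0%), 1637 higher (8.72%) and 985 lower (5.25%) in Ab ME. Each of 11982 genes with a single symbol was represented by its brightest probe set, and 2057 of these genes passed (17.2%), 1343 higher (11.2%) and 714 lower (5.96%). Their median difference was -0.01. A signal floor of 1.05 was set at the 90th percentile of the means of 56 odorant receptor genes, a family known from olfactory neurons of the head, whose means ranged from 0.51 to 2.86. Among the 7915 named genes above that floor in both groups, 24.1% passed, 16.6% higher and 7.48% lower, with a median difference of 0.34. These shares are the background for every list below, and a list with most members above the floor is read against the second set.

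The 6 arrays differed in ways that touch all of these counts. Control replicates correlated at 0.93 to 0.944 and Ab ME replicates at 0.984 to 0.985 across probe sets. The median SD over 3 arrays was 0.317 in Control and 0.175 in Ab ME. Bacterial hybridization controls, added at known amounts on arrays of this kind, were lower on the Ab ME arrays by uneven amounts. BioB averaged 10.63, 11.07 and 11.26 in Control and 9.49, 9.54 and 9.53 in Ab ME, while CreX differed by -0.05. The uneven steps give no single factor by which to rescale the arrays. The tested probe sets also did not share 1 distribution over the arrays. Upper quartiles were 3.89, 3.59 and 3.88 on the Control arrays and 4.17, 4.19 and 4.28 on the Ab ME arrays. Array medians averaged 1.62 in Control and 1.45 in Ab ME. After another quantile normalization, 49.6% of the probe sets that passed were higher instead of 62.4%. The count after that step is therefore given beside most lists below. Among the 7915 named genes above the floor in both groups, that step took rises from 1314 to 685 and falls from 592 to 638. Without the 3 arrays labelled Kn ME, 1726 probe sets passed, 1089 higher and 637 lower. In that fit the rises among lysosomal, ESCRT, signal peptide, ER folding and vesicle coat genes numbered 11, 4, 5, 4 and 2, those among extracellular peptidases 8, Imd 3 and DNA repair 4, and 3 glycolysis genes fell. Leaving out any single Ab ME array cut the 2622 calls to between 1400 and 1426.

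**Figure D1:**
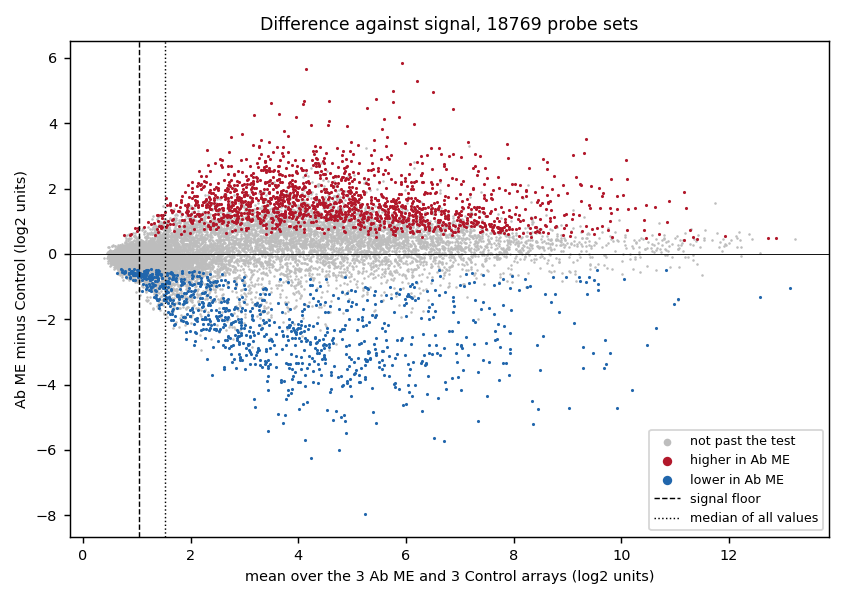
Difference between Ab ME and Control (vertical axis, log2 units) against the mean over the 6 arrays (horizontal axis, log2 units) for the 18769 probe sets tested. Coloured points passed the limma test, and the dashed and dotted lines mark the signal floor of 1.05 and the median of all values, 1.53. Most calls lie to the right of both lines, and falls reach further toward the floor than rises.

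Markers of the labelled cells and of other cells moved between the groups. Of 16 markers of da and other peripheral sensory neurons 7 fell and 1 rose, and their summed signal on the linear scale ranged from 535.8 to 759.1 in Control and from 154 to 167.7 in Ab ME. Gr28b, ppk and onecut were below the floor in Ab ME. Of 17 hemocyte (blood cell) markers 16 rose, with sums of 2850 to 6680 in Control and 17270 to 19330 in Ab ME. The mean log2 level of the hemocyte list was 7.82, 6.79 and 6.32 on the Control arrays and 9.18, 9.25 and 9.36 on the Ab ME arrays. Of 14 muscle markers 11 fell (sums of 1547 to 3981 against 210 to 409.1), and of 15 epidermis markers 6 fell (969.2 to 1654 against 65.07 to 112.1). Glia and trachea markers had 9 falls and 1 rise of 15 (1753 to 2360 against 384.1 to 499.7). In pooled cells such as these, fewer cells of a type and less RNA per cell cannot be told apart, and the part of these markers in the results below was not tested.

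**Figure D2:**
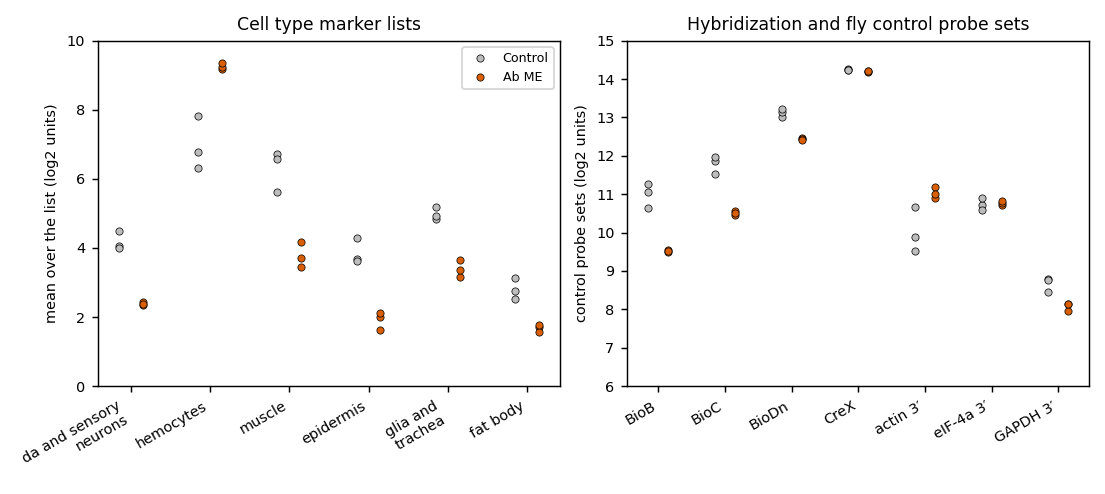
Left, mean log2 level of each cell type marker list on each array. Right, log2 level of bacterial hybridization controls and of fly control probe sets. Each point is an array, 3 per group. The hemocyte list is higher and the other 5 lists are lower on every Ab ME array than on any Control array, and BioB, BioC and BioDn are lower in Ab ME while CreX is nearly level.

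Many genes of the lysosome, the compartment in which cells digest what they take up, were higher with ectopic Abrupt. Of 34 genes for lysosomal hydrolases and membrane proteins, 14 (41.2%) rose by 0.74 to 2.31 and 1, Npc2b, a sterol-binding protein of the Niemann-Pick type C2 family, fell by 2.41. The list median was 0.46. After another quantile normalization 12 rose and 2 fell, and with an array left out between 9 (without Ab ME replicate 3) and 16 (without Control replicate 1) rose. Of the members, 8 were below the floor in both groups.

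LManI, a lysosomal alpha-mannosidase that trims sugar chains, read 6.05, 6.21 and 5.08 on the Control arrays and 8.14, 8.01 and 8.11 on the Ab ME arrays. The groups did not overlap, and the Control arrays spread more widely than the Ab ME arrays (difference 2.31, SE 0.28, 4.95-fold, limma adjusted p = 0.00142). CtsB, a cathepsin protease, was among the brightest members at 10.13, 10.16 and 9.45 in Control and 11.37, 11.27 and 11.39 in Ab ME (1.43, SE 0.21, adjusted p = 0.00346). The hexosaminidase gene fdl, also in this list, is known for removing sugars from N-glycans as they are processed, not for lysosomal digestion. It read 5.80, 4.82 and 6.48 against 7.95, 7.93 and 8.15 (2.31, SE 0.36, adjusted p = 0.00457). All 3 Ab ME arrays were above all 3 Control arrays for each of these genes.

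Membrane proteins of the compartment rose too. Lamp1, the abundant protein of the lysosomal membrane, read 10.25, 9.91 and 10.02 in Control and 10.67, 10.82 and 10.90 in Ab ME (0.74, adjusted p = 0.011). Npc1a, a sterol transporter, rose by 0.83 (SE 0.15, adjusted p = 0.0104) and spin, a transporter that empties lysosomes of breakdown products, by 1.44 (SE 0.28, adjusted p = 0.0127). Lamp1 and Npc1a passed under all 14 alternatives run for single genes, and spin under 13. The 32 genes measured for the vacuolar ATPase, the proton pump that acidifies these organelles, had 0 rises in limma, or 1 at an unadjusted p under 0.05, and 3 falls. The falls were VhaAC45RP (-1.77, adjusted p = 0.00238), VhaM9.7-a (-1.71, adjusted p = 0.00744) and Vha36-3 (-0.52), of which the last passed in 3 alternatives only. All 3 were dim, with Control means of 3.42, 2.99 and 2.10 and Ab ME means of 1.65, 1.28 and 1.58. The list as a whole was level, with a median difference of -0.02. Its mean log2 level was 4.51, 4.63 and 4.63 in Control and 4.51, 4.45 and 4.63 in Ab ME. Of its members, 11 were below the floor in both groups.

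Of 16 ESCRT genes, whose products sort membrane proteins into vesicles inside endosomes, 7 (43.8%) rose around a list median of 0.84. Vps25, a subunit of ESCRT-II, read 4.11, 3.79 and 3.25 in Control and 5.59, 5.67 and 4.92 in Ab ME, without overlap (1.67, SE 0.26, adjusted p = 0.0049). On values quantile-normalized again, 2 rose, Vps25 and the ESCRT-II gene lsn, and without Ab ME replicate 2 also 2. Among 21 autophagy genes 3 rose (14.3%, against 16.6% of named genes above the floor), and 1 after that step. These were Atg16 (1.98, adjusted p = 0.0199), Atg18a (0.67) and the protease gene Atg4b (1.20). None of the 3 remained past the test without Ab ME replicate 2 or without Ab ME replicate 3. In the same arrays the hemocyte markers rose in 16 of 17, and their part in these rises was not tested.

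**Figure D3:**
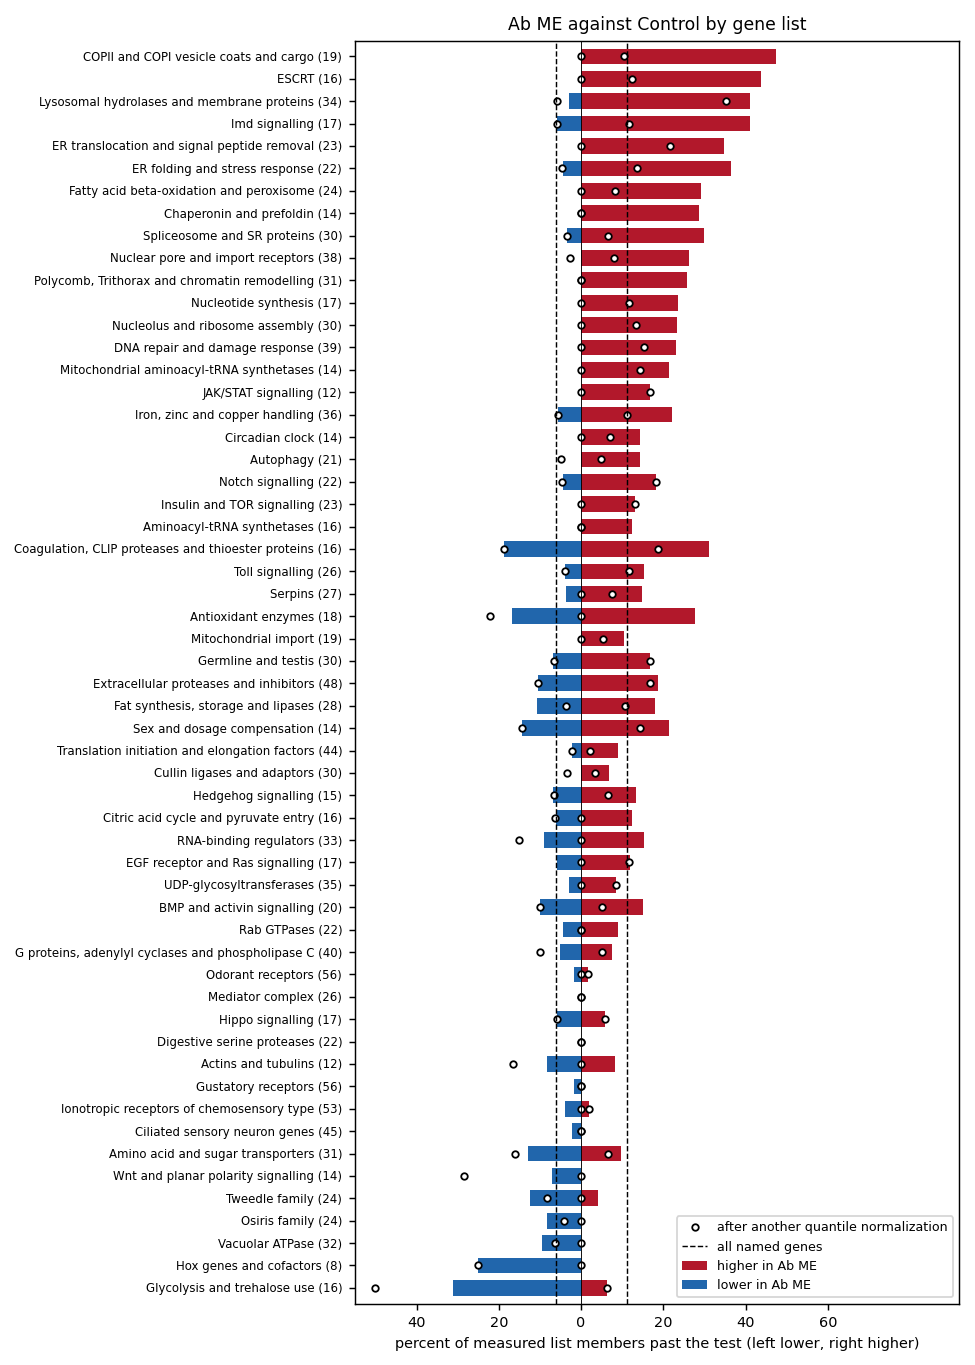
Percent of the measured members of each gene list that passed the limma test, higher in Ab ME to the right and lower to the left, with the number measured in brackets. Open circles give the same after another quantile normalization, and dashed lines give the 11.2% and 6.0% over all named genes before that step. Bars for vesicle coats, ESCRT, lysosome, Imd signalling and the endoplasmic reticulum reach furthest right, glycolysis and Hox genes furthest left, and most right-hand circles fall short of their bars.

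Genes of the early secretory pathway, which folds, glycosylates and ships secreted and membrane proteins, were higher by moderate amounts. Of 23 genes for entry into the endoplasmic reticulum (ER) and removal of signal peptides 8 (34.8%) rose, of 22 genes for ER folding and stress 8 (36.4%) rose and 1 fell, and of 19 genes for COPII and COPI vesicle coats and their cargo receptors 9 (47.4%) rose. The list medians were 0.62, 0.87 and 0.78. Under the other quantile normalization, 5, 3 and 2 members rose. Without any single Ab ME array the counts were 4 or 5, 3 to 5, and 2.

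Sec63, a partner of the translocation channel, read 4.45, 4.26 and 4.44 in Control and 5.91, 5.75 and 5.65 in Ab ME. Its arrays were tight in both groups and far apart between them (1.38, SE 0.14, 2.61-fold, adjusted p = 0.00063). Stt3B, a catalytic subunit of the enzyme that attaches N-glycans, rose by 0.96 (SE 0.16, adjusted p = 0.0058), and Spase12, of the signal peptidase, by 0.90 (SE 0.15, adjusted p = 0.00585). Herp, which acts in the removal of misfolded ER proteins, read 5.41, 5.23 and 5.59 against 6.72, 6.60 and 7.06 (1.39, SE 0.16, adjusted p = 0.00135). The gene that fell was crc, the fly ATF4 factor of the stress response, at 10.16, 10.59 and 10.55 in Control and 9.52, 9.64 and 9.84 in Ab ME (-0.77, adjusted p = 0.0159, passed in 11 of 14 alternatives).

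Among coat genes, Sec24CD, the COPII subunit that picks cargo, read 2.89, 3.02 and 3.77 in Control and 5.11, 5.05 and 5.41 in Ab ME (1.96, SE 0.28, adjusted p = 0.00316). It was the only coat gene to pass under all 14 alternatives. The cargo receptor bai also passed after quantile normalization (1.15, adjusted p = 0.018 as deposited and 0.0372 after that step). Of 22 Rab GTPases, which direct vesicles to their targets, Rab30 (1.11) and Rab10 (1.01) rose and the brightest Rab26 probe set fell by 0.56, and 0 passed after quantile normalization.

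Single genes for extracellular peptidases and matrix proteins showed large differences both ways. Of 48 genes in this list 9 (18.8%) rose, by 1.52 to 4.45, and 5 (10.4%) fell, with a list median of -0.05. Over all named genes the shares were 11.2% and 5.96%. Of the 48, 31 were above the floor in both groups. Among those 31, 9 rose and 4 fell, against 16.6% and 7.48% of named genes above the floor. The rises were little affected by the processing, with 8 after another quantile normalization and 8 to 10 with an array left out. The count of falls ranged from 2 (without Ab ME replicate 1 or 2) to 8 (without Control replicate 2).

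Of the rises, 5 were neprilysin-like genes, named for similarity to a membrane peptidase that cleaves peptides. Nepl20 read 5.04, 5.47 and 3.44 in Control and from 8.97 to 9.33 in Ab ME (4.45, SE 0.46, 21.9-fold, adjusted p = 0.000778). Nepl19 read 2.73, 1.86 and 3.11 against 6.44, 6.79 and 6.35 (3.96, SE 0.30, adjusted p = 0.000212), and Nepl9 read 1.18, 0.86 and 1.14 against 5.43, 5.07 and 5.45 (4.25, SE 0.34, adjusted p = 0.000261). The Control mean of Nepl9 lay at the signal floor, so the size of its difference is uncertain, while those of Nepl19 and Nepl20 were above it. Nepl21 and Nepl3 rose by 3.35 and 1.87. By contrast the neprilysin genes Nep2 and Nep3 fell, Nep2 from 3.27, 4.48 and 5.76 to 1.52, 1.76 and 2.20 (-2.67, adjusted p = 0.018) and Nep3 by 2.10 (adjusted p = 0.0285).

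Papilin (Ppn), a matrix glycoprotein, was bright in every array and read 8.15, 7.55 and 7.10 in Control and 10.93, 11.15 and 11.26 in Ab ME (3.51, SE 0.25, 11.4-fold, adjusted p = 0.000182). SPARC, a collagen-binding protein of basement membranes, read 7.96, 7.58 and 6.97 against 9.66, 9.43 and 9.53 (2.04, SE 0.24, adjusted p = 0.00148). Both are known products of fly hemocytes, and on the same arrays the hemocyte markers Hml (2.87) and Pxn (2.09) rose too. Swim, a secreted protein that binds Wingless, read 7.27, 5.66 and 7.62 in Control and 2.42, 2.09 and 4.34 in Ab ME, with no overlap (-3.90, SE 0.65, 14.9-fold lower, adjusted p = 0.00611). AdamTS-A, a matrix metalloprotease, fell by 2.98 (adjusted p = 0.00307), and its dimmer probe set differed by -0.36 without passing. The metalloprotease gene sona had 3 probe sets, of which the brightest fell 31.9-fold, another differed by -3.19 (adjusted p = 0.000279) and the last differed by -0.11.

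Imaginal disc growth factors, secreted chitinase-like proteins, split in direction. In the list of coagulation, protease and thioester protein genes that held them, 5 of 16 (31.2%) rose and 3 (18.8%) fell. After another quantile normalization 3 rose and 3 fell. Of the 16, 14 were above the floor in both groups, where 16.6% of named genes rose and 7.48% fell. Idgf1 read 7.59, 7.29 and 6.38 in Control and 9.69, 10.24 and 10.08 in Ab ME (2.92, SE 0.29, adjusted p = 0.000705). Idgf6 and Idgf2 each rose by 2.01, and Idgf3 by 1.61 with a second probe set at 1.83. Idgf4, by contrast, read 6.89, 7.34 and 6.96 in Control and 3.76, 3.25 and 5.25 in Ab ME (-2.98, SE 0.46, 7.88-fold lower, adjusted p = 0.00468). The proteases Sp212 and Sp7, the latter known in melanization, fell by 1.99 and 1.51. Among 27 serpins, inhibitors of such proteases, Spn88Ea (1.44, adjusted p = 0.00142) and Spn28Dc (2.77, adjusted p = 0.00256) rose under all 14 alternatives, Spn55B (1.17) and Spn42Dc (2.67) under 5 and 8, and Spn43Aa fell from a Control mean of 1.75 to 0.93, below the floor.

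**Figure D4:**
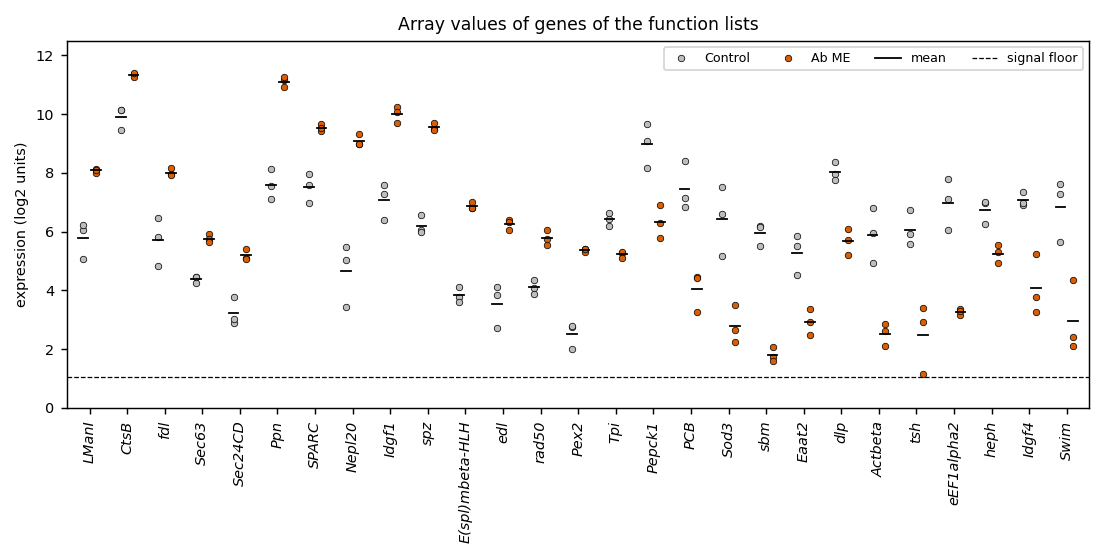
Log2 expression of 27 genes of the function lists on each Control and Ab ME array, 3 points per group with the mean as a bar and the signal floor of 1.05 as a dashed line. The genes were picked with their values known. Ab ME arrays lie above all Control arrays for the first 14 genes and below them for the 13 that follow.

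Among 12 actins and tubulins Act87E fell by 2.65, together with 11 of 14 muscle markers of which it is one, and betaTub97EF rose by 1.73.

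Several glycolysis genes were lower. Of 16 genes for glycolysis, gluconeogenesis and trehalose use 5 (31.2%) fell and 1 rose, with a list median of -0.70, and after another quantile normalization 8 fell. Between 3 (without Ab ME replicate 1 or 2) and 7 (without Control replicate 1) fell with an array left out. Tpi, triose phosphate isomerase, read 6.43, 6.63 and 6.19 in Control and 5.29, 5.29 and 5.12 in Ab ME (-1.19, SE 0.20, 2.27-fold lower, adjusted p = 0.00611). Ald1 (aldolase), Gapdh1 and Pgi fell by 1.23, 1.41 and 1.24, although the dimmer Ald1 probe set differed by -0.43 and did not pass. The rise was fbp, the phosphatase that acts in place of phosphofructokinase in gluconeogenesis, from 4.10, 4.66 and 4.50 to 5.63, 5.91 and 6.27 (1.51, SE 0.26, adjusted p = 0.0066).

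Another gluconeogenic enzyme went the other way. Pepck1 read 8.18, 9.66 and 9.07 in Control and 5.78, 6.90 and 6.29 in Ab ME (-2.64, SE 0.49, 6.25-fold lower, adjusted p = 0.0101). PCB, the pyruvate carboxylase that feeds the citric acid cycle, read 7.13, 6.84 and 8.39 against 3.28, 4.45 and 4.41 (-3.41, SE 0.44, 10.6-fold lower, adjusted p = 0.00201), and its dimmer probe set fell by 1.61. The groups were apart for both genes. Of 16 genes of the cycle and of pyruvate entry only Idh (0.65) and SdhB (1.15) rose, each in 5 alternatives. Of 8 markers of the fat body, which is known for high levels of such enzymes, 2 fell and 1 rose on the same arrays. The falls were Fbp1 (-2.36) and Fbp2 (-3.32, passed in 6 of 14 alternatives). Muscle markers fell in 11 of 14, and the part of either cell type in these enzyme falls was not tested.

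A list of amino acid and sugar transporters, which also held kcc and Oatp74D, had 4 falls (12.9%) and 3 rises (9.7%) of 31. After another quantile normalization it had 5 and 2. The amino acid transporter gene sbm read 5.51, 6.18 and 6.14 in Control and 1.75, 1.60 and 2.08 in Ab ME, a fall of 17.6-fold in which the groups were far apart (-4.14, SE 0.31, adjusted p = 0.000211). The transporter of basic amino acids slif read 2.93, 3.86 and 4.97 against 0.67, 0.81 and 0.65 (-3.21, adjusted p = 0.00251). Its Ab ME arrays were all below the floor, so the size is uncertain. Eaat2, a transporter of acidic amino acids, fell by 2.36 (adjusted p = 0.00971) and the brightest probe set of the glucose transporter Glut1 by 2.17 (adjusted p = 0.0432), while its other probe sets differed by -1.12 and -0.86 without passing. The rises were mnd (1.49), the potassium and chloride cotransporter kcc (2.05) and Oatp74D (1.94), which imports ecdysone. Of these, kcc and Oatp74D are not carriers of amino acids or sugars. All 3 rises were lost when any single Ab ME array was left out.

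Lipid handling and peroxisome genes were mostly higher where they passed. Of 24 genes for fatty acid oxidation and peroxisomes 7 (29.2%) rose. Pex2, a peroxisome assembly factor, read 2.75, 2.77 and 2.01 in Control and 5.42, 5.30 and 5.41 in Ab ME (2.87, SE 0.24, 7.29-fold, adjusted p = 0.000305), and Pex13, of the import pore, rose by 1.11 (SE 0.15, adjusted p = 0.00232). These 2 were the members that passed under all 14 alternatives and after quantile normalization. Of 28 genes for fat synthesis and storage 5 (17.9%) rose and 3 (10.7%) fell, against 11.2% and 5.96% of all named genes. Among the 21 above the floor in both groups 5 rose and 2 fell, against 16.6% and 7.48%. The acyltransferase Agpat3 (1.63, adjusted p = 0.00144), the lipid droplet protein Seipin (1.89, adjusted p = 0.00499) and the lipase bmm (1.80, adjusted p = 0.00553) rose under all alternatives, while the fatty acid elongase bond (-2.34), FASN2 (-1.11) and Agpat2 (-1.27, below the floor in Ab ME) fell.

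Antioxidant enzymes changed in both directions. The extracellular superoxide dismutase Sod3 read 5.18, 7.52 and 6.59 in Control and 2.66, 2.24 and 3.50 in Ab ME (-3.63, SE 0.59, 12.4-fold lower, adjusted p = 0.0056), with a second probe set at -2.35 (adjusted p = 0.00246). The peroxidase Pxd fell by 3.37 and its other probe set by 3.18, and catalase (Cat) fell by 0.88. Of 18 genes 5 rose, among them the mitochondrial peroxiredoxin Prx3 (0.95, adjusted p = 0.00887), but 0 rose after another quantile normalization. Of 36 genes for iron, zinc and copper 8 rose and 2 fell, and 4 and 2 after that step. Catsup, a zinc transporter, read 4.27, 4.25 and 3.91 against 5.79, 5.39 and 5.89 (1.55, SE 0.17, adjusted p = 0.00108). The metallothionein MtnA rose by 2.62 (adjusted p = 0.0219, passed in 10 alternatives), its metal-responsive factor MTF-1 by 1.44 and ferritin (Fer1HCH) by 0.68. The zinc transporter Zip89B fell by 1.20, and the brightest of 3 probe sets of transferrin (Tsf1) fell by 1.07 while the others differed by -0.05 and -0.24.

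Of the immune pathways, Imd, with all 17 genes above the floor, had a share of rises above the background of 16.6%. Toll had 15.4% over 26 genes, with 4 rises among the 17 above the floor in both groups. JAK/STAT had 16.7% over 12 genes, with 2 rises among the 10 above the floor in both groups. In the Toll pathway, where the cleaved ligand Spätzle binds Toll, spz read 6.57, 6.07 and 5.98 in Control and 9.50, 9.72 and 9.45 in Ab ME (3.35, SE 0.18, 10.2-fold, adjusted p = 5.76e-05). The arrays of each group lay close together. The brightest Tl probe set rose by 2.77 (adjusted p = 0.0164) and its other probe set differed by 0.89 without passing. The inhibitor cact (0.82) and the adaptor tub (0.84) rose, and GNBP3, a sensor of fungal sugars, fell by 2.03. In all 4 of 26 Toll pathway genes rose and 1 fell, with a list median of -0.04, and 3 and 1 after another quantile normalization.

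In the Imd pathway, which answers to bacterial cell wall, 7 of 17 genes (41.2%) rose and 1 fell, with a list median of 0.90. Charon read 4.21, 4.93 and 4.12 against 6.28, 7.80 and 6.60 (2.48, adjusted p = 0.00523), and the inhibitor pirk rose by 2.76 (adjusted p = 0.0232). The factor Rel read 8.35, 8.12 and 7.06 against 9.47, 9.75 and 9.10 (1.59, adjusted p = 0.0437). Uev1A, a ubiquitin-conjugating cofactor, was lower on every Ab ME array (-0.86, adjusted p = 0.00424). Under the other quantile normalization, Charon and pirk were the 2 that rose, and without Ab ME replicate 2 only 1 gene did. Of 12 JAK/STAT genes the transcription factor Stat92E (1.37, adjusted p = 0.00264) and et, known as a negative regulator of the receptor, rose (1.00, adjusted p = 0.0153). Hemocytes are known to express much of this machinery, and the part of the higher hemocyte markers in these rises was not tested.

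In Notch signalling 4 of 22 genes rose (18.2%) and 1 fell, also after another quantile normalization. E(spl)mbeta-HLH, a repressor gene that Notch is known to switch on, read 4.11, 3.77 and 3.62 in Control and 6.79, 7.02 and 6.80 in Ab ME (3.04, SE 0.16, 8.21-fold, adjusted p = 5.54e-05). Another gene of the same complex, E(spl)m6-BFM, read 2.70, 3.06 and 3.35 against 1.31, 1.97 and 1.06 (-1.59, adjusted p = 0.0376), so members of the complex went opposite ways. The receptor protease kuz rose by 1.02 (adjusted p = 0.00408), the ubiquitin ligase neur 2.83-fold (adjusted p = 0.00471) and the glycosyltransferase O-fut1 by 2.31 (adjusted p = 0.015).

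Among 17 genes of EGF receptor and Ras signalling 2 rose (11.8%) and 1 fell (5.9%), and 2 and 0 after that step. Neither share was above that of named genes above the floor, 16.6% higher and 7.48% lower. The inhibitor sty rose at both of its probe sets (1.66 and 1.82, adjusted p = 0.000237 and 0.000795). edl, which restrains the ETS factors of the pathway, read 4.13, 3.83 and 2.70 against 6.40, 6.32 and 6.06 (2.71, SE 0.33, adjusted p = 0.00157). The receptor Egfr itself fell from a dim 2.76, 1.90 and 2.23 to 1.46, 1.17 and 1.43 (-0.94, adjusted p = 0.0352, passed in 6 alternatives). In Hippo signalling 1 of 17 genes rose (5.9%) and 1 fell (5.9%), also not above those shares. The kinase wts rose by 1.68 (adjusted p = 0.0101) and its target, the coactivator yki, fell by 0.91 (adjusted p = 0.0273).

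In the activin branch of BMP and activin signalling, 2 ligands fell. Actbeta, activin-beta, a ligand known to be made by fly neurons, read 5.95, 4.92 and 6.81 in Control and 2.60, 2.12 and 2.85 in Ab ME (-3.37, SE 0.45, 10.4-fold lower, adjusted p = 0.00245). The related ligand daw fell from 2.41, 3.97 and 3.74 to 1.04, 0.89 and 1.31 (-2.29, adjusted p = 0.00583), around the floor. The ligand myo went up by 2.13 (adjusted p = 0.0184), with smaller rises of the BMP ligand gbb (0.77) and the activin receptor babo (0.87). Of 14 Wnt and planar polarity genes measured, dlp, a glypican that binds Wnt and Hedgehog proteins, fell from 8.36, 7.98 and 7.77 to 6.10, 5.21 and 5.73 (-2.35, SE 0.31, adjusted p = 0.00236). On values quantile-normalized again, 4 of the 14 fell.

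Of 15 Hedgehog pathway genes 2 rose (13.3%) and 1 fell (6.7%). The rises were botv, an enzyme of heparan sulfate synthesis (1.99, adjusted p = 0.00744), and the inhibitor Su(fu) (0.67). The coreceptor ihog fell by 0.80. In insulin and TOR signalling 3 of 23 genes rose, and each passed under all 14 alternatives. These were Lst8, a TOR complex subunit (1.29, adjusted p = 0.00313), and Iml1 (1.74, adjusted p = 0.00408) and Nprl2 (1.27, adjusted p = 0.0079), both of the GATOR1 complex that restrains TOR. Nprl3, the remaining GATOR1 subunit, differed by 0.67 and did not pass.

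Of 8 Hox genes and cofactors, which give cells their place along the body, 2 fell, and 2 after another quantile normalization. tsh, the zinc finger factor of trunk identity, read 5.91, 5.57 and 6.74 in Control and 1.16, 2.92 and 3.40 in Ab ME (-3.58, SE 0.59, adjusted p = 0.00593). Ab ME replicate 1 was close to the floor and the groups did not overlap. The brightest Antp probe set also fell, while its dimmer probe sets differed by -0.90 and -0.31 without passing.

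Counts of rises among genes of the nucleus were lower after another quantile normalization, as they were over all named genes above the floor. Of 39 DNA repair genes 9 (23.1%) rose, around a list median of 0.66, with 6 after another quantile normalization and 3 without Ab ME replicate 2 or without Control replicate 2. All 3 subunits of the MRN complex, which binds broken DNA ends, were among them. rad50 read 4.08, 4.35 and 3.87 against 5.54, 6.05 and 5.73 (1.68, SE 0.28, adjusted p = 0.00598), mre11 rose by 2.46 (adjusted p = 0.0159) and nbs by 1.08 (adjusted p = 0.0443). Irbp, the Ku70 subunit of another end-binding complex, rose by 1.72 (adjusted p = 0.00527), and lok, the checkpoint kinase Chk2, by 1.27 (adjusted p = 0.0245).

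Nuclear pore and import genes had 10 rises of 38, with 3 rises and 1 fall after another quantile normalization. Ranbp21, an exportin, rose by 1.87 (adjusted p = 0.00424) and the pore proteins Nup358 and Nup37 by 0.93 and 1.05 under all 14 alternatives. Spliceosome genes had 9 rises and 1 fall of 30, and 2 and 1 after that step. Polycomb, Trithorax and remodelling genes had 8 rises of 31, with the smallest p for Bap60 (1.24, adjusted p = 0.0115), and 0 after quantile normalization. Without Ab ME replicate 1 or 2 only 1 spliceosome gene rose, and without Ab ME replicate 3 only 1 Polycomb or Trithorax gene. Of 30 genes for the nucleolus and ribosome assembly 7 rose around a median of 1.08, and 4 after quantile normalization, with NHP2 (1.85, adjusted p = 0.00457), Tsr1 (1.19) and Polr1C (1.89) passing under every alternative. In the Mediator complex, 0 of 26 genes passed limma, or 5 rises and 0 falls at an unadjusted p under 0.05, and CycC came closest (1.03, adjusted p = 0.0559).

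Regulators of RNA included larger falls. Of 33 RNA-binding genes 5 (15.2%) rose, by at most 1.30, and 3 (9.1%) fell. After another quantile normalization 0 rose and 5 fell. The splicing factor heph, the fly polypyrimidine tract binding protein, read 6.97, 6.28 and 6.99 against 5.29, 4.94 and 5.54 (-1.49, SE 0.30, adjusted p = 0.0135). The brightest mbl probe set fell by 2.65 (adjusted p = 0.00857), another by 1.55, and its 4 others differed by 0.64 to 0.98 without passing, so mbl gives no single direction. Rbp9, a neuronal Elav family gene, fell by 2.48 (adjusted p = 0.0158) at its brightest probe set and differed by 0.09 at the other.

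Most translation factors did not pass. Of 44 genes 4 (9.1%) rose, by 0.54 to 1.38, and 1 (2.3%) fell. That gene, eEF1alpha2, fell from 7.10, 6.05 and 7.80 to 3.17, 3.35 and 3.29 (-3.71, SE 0.59, 13.1-fold lower, adjusted p = 0.00501). The Ab ME arrays of eEF1alpha2 were tight and the Control arrays spread over more than a log2 unit. eEF1delta, a subunit of the exchange factor that reloads elongation factor 1 alpha, rose by 0.86 (SE 0.12, adjusted p = 0.0032). Of 14 mitochondrial aminoacyl-tRNA synthetases, which charge tRNAs inside the organelle, 3 rose, ValRS-m by 1.75 (adjusted p = 0.00694) from a Control mean near the median of all values. In nucleotide metabolism 4 of 17 genes rose, with the secreted adenosine deaminase Adgf-A, known from hemocytes, at 3.51, 3.66 and 1.84 in Control and 5.53, 5.68 and 6.63 in Ab ME (2.95, SE 0.51, 7.71-fold, adjusted p = 0.00713).

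Low signal bore mostly on falls. Of the 714 named genes that fell, 122 (17.1%) had an Ab ME mean below the floor and 224 (31.4%) one below 1.53, the median of all values. Of the 1343 that rose, 29 (2.16%) had a Control mean below the floor. The share was greatest for small falls, with 64 of 132 falls of less than 2-fold (48.5%) reaching below the floor, against 7 of 173 falls of at least 8-fold (4.05%). Over all probe sets, 185 of the 985 lower calls were above the floor in Control only and 43 of the 1637 higher calls in Ab ME only. These were 7.2% of the 2575 probe sets above the floor in Control only and 10.3% of the 417 in Ab ME only. The larger count of lower calls thus came from a larger set. Another 5 calls lay below the floor in both groups.

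Most chemosensory receptors were below the floor. Of 56 odorant, 56 gustatory and 53 ionotropic receptors 41, 38 and 30 were below the floor in both groups. Their list medians were -0.14, -0.19 and -0.16, so these dim families lay slightly lower as a whole in Ab ME. The calls among them were mostly small, such as Gr22c at 1.18, 1.43 and 1.21 in Control and 0.65, 0.79 and 0.60 in Ab ME (-0.59, adjusted p = 0.0256) or Or65b (-0.64, adjusted p = 0.0341), and neither passed after another quantile normalization. Or1a stood out at 1.07, 2.38 and 1.80 against 3.02, 3.81 and 5.10 (2.23, adjusted p = 0.0263, passed in 8 alternatives), above the floor in both groups, and Ir7g rose from below the floor (0.74, 0.72 and 1.19) to 2.45, 2.04 and 2.00. Since the odorant receptors set the floor, their place relative to it is by construction. The falls of Osi24 (-0.69) and Osi1 (-0.52) of the Osiris family, of Ugt49B1 (-0.65) among the UDP-glycosyltransferases, of stl (-0.54) and of TwdlP (-0.74) all left an Ab ME mean below the floor, and of these only Osi24 also passed after another quantile normalization.

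Larger differences in the same families were above the floor. Ugt35A1, a UDP-glycosyltransferase of a family that tags small molecules with sugar, read 1.98, 1.85 and 2.21 in Control and 4.61, 6.08 and 6.18 in Ab ME (3.61, SE 0.38, 12.2-fold, adjusted p = 0.00079). TwdlE, a Tweedle cuticle protein gene, read 9.02, 8.21 and 6.34 against 10.09, 10.04 and 9.80 (2.12, adjusted p = 0.0411), whereas TwdlO fell by 1.53 and TwdlH by 1.14. In 22 digestive serine proteases 0 passed limma, or 3 lower at an unadjusted p under 0.05, and 14 were below the floor in both groups.

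Among differences of the next ranks after the largest 10 in each direction, low signal again mattered. The 20 largest rises had 4 genes with a Control mean below 1.53 and the 20 largest falls had 6 with an Ab ME mean below it. CG10859 read 0.91, 2.81 and 0.77 in Control and 5.64, 5.94 and 5.76 in Ab ME (4.28, adjusted p = 0.001), a rise that began at or below the floor on 2 Control arrays. CG34437, in contrast, read 3.58, 3.77 and 3.97 against 7.42, 8.07 and 8.43 (4.20, SE 0.34, adjusted p = 0.000272), above the floor throughout. The P450 gene Cyp4ac1 read 3.15, 4.87 and 1.10 against 7.58, 7.06 and 7.92 (4.48, adjusted p = 0.00754), with a wide spread in Control.

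Of the falls in these ranks, Cyp4p1, a P450 gene, read 5.57, 6.53 and 6.53 in Control and 1.18, 1.24 and 1.45 in Ab ME (-4.92, SE 0.40, adjusted p = 0.000279), just above the floor. CanB, a regulatory subunit of the phosphatase calcineurin, read 7.49, 6.67 and 7.14 against 2.39, 2.38 and 2.09 (-4.81, SE 0.32, 28.1-fold lower, adjusted p = 0.000157), and yellow-d2 read 7.11, 8.49 and 7.82 against 2.60, 3.02 and 3.26 (-4.85, SE 0.33, adjusted p = 0.000157). Both were above the median of all values on every array. The cuticle protein genes Cpr78E and Cpr92F fell by 4.80 and 4.79, with Ab ME replicate 1 the lowest for each. CG16704 fell by 4.93 (adjusted p = 0.00124) and again had its lowest value, 1.36, on that array.

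Few genes of other sensory cells passed. Of 45 genes of ciliated sensory neurons, the chordotonal and external sensory cells of the same body wall, 1 fell, the brightest probe set of nompA, which encodes a matrix protein made by support cells (-1.67, adjusted p = 0.0416, passed in 6 alternatives). At an unadjusted p under 0.05 there were 7 falls and 1 rise. The mean log2 level of that list was 1.58 to 1.60 on the Control arrays and 1.39 to 1.49 on the Ab ME arrays, close to the median of all values. Of 13 oenocyte genes 3 fell and spidey rose by 0.86. Of 18 nephrocyte and gut genes, 13 of them below the floor in both groups, Mal-B2, a maltase gene, fell by 2.42 (adjusted p = 0.0159).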

How the data were processed

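Total RNA of sorted cells from 9 samples was hybridized to Affymetrix Drosophila arrays. The deposited log2 values come from RMA, a step credited to the submitters' processing notes, and their log base was inferred from their range. RMA corrects background, quantile-normalizes arrays and summarises probes, and it compresses differences between dim probe sets. The deposited values of the 2 groups nonetheless differed in their upper quartiles, as given above. The variant used, detection calls and scan batches are not given in the sources used here, so signal over background is unknown, and precision is limited by how few arrays there are.

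Of 18952 probe sets, 183 controls were not tested. The platform annotation gave 1 symbol to 13647 of those tested, several to 402 and none to 4720. Of the former, 13544 took their current symbol by gene identifier from RefSeq (assembly Release 6 plus ISO1 MT). The brightest probe set over 9 arrays stood for a gene, and 1094 genes had more than 1. Coordinates and sequences were not used here.

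Differences were tested with limma 3.58.1 in R 4.3.3, fitting a mean per group to all 9 arrays (6 residual and 2.44 prior degrees of freedom), and the script was tested on simulated data. The SE is that of the model. The comparison, the 65 gene lists (1 is not reported here) and the rule for naming genes were chosen with earlier results of these data known, and list members that a name pattern had matched wrongly were removed by symbol after the data were examined. Named were large differences above the floor, ranks 11 to 20, up to 4 members of each list by smallest p and every member of small counts. Replicate numbers 1 to 3 recur in both groups. Same-numbered arrays deviated together with r = 0.124, 0.0529 and 0.211, and differently numbered arrays with -0.189 to 0.0557. These weak correlations do not settle whether a number marks a shared batch, and the arrays were not taken as pairs. Alternatives were another quantile normalization, median centring, the 6 arrays alone, a trended robust prior, a weight per group, a filter at the median, a replicate block, the mean of a gene's probe sets and each array left out.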

Additional observations from a re-analysis of the deposited data

Results flagged for a closer look

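The control probe set for the 3′ end of a fly actin mRNA, which stood outside the tested probe sets, was higher in Ab ME than in Control by 1.01 log2 units. It read 10.66, 9.88 and 9.53 on the Control arrays and from 10.91 to 11.18 on the Ab ME arrays, without overlap. The probe set for the 5′ end of the same mRNA read 10.64, 10.12 and 8.72 against 10.88, 10.71 and 10.16. On the same arrays the 3′ probe set of eIF-4a read 10.71, 10.60 and 10.91 against 10.71, 10.78 and 10.82. These probe sets were not tested.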

How the results depend on the processing

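The 2622 calls became 1726 (1089 higher, 637 lower) with the 6 arrays alone, and 1814 after another quantile normalization, which left 899 higher calls. With an array left out, calls ranged from 1400 to 3249, higher calls from 845 to 1965 and lower calls from 522 to 1284. Median centring moved the median difference by 0.17 and gave 3127 calls, 76.2% of them higher. The replicate block gave 2778 calls. Control replicates 1 and 3 correlated best with the Ab ME array of their own number. Control replicate 2 correlated about equally with Ab ME replicate 1 (0.0557) and with its own number (0.0529). Of the 179 genes named in the text that passed, 94 did so under every alternative, 141 after quantile normalization, 128 with the 6 arrays alone, 160 with the block and at least 115 without any 1 Ab ME array. A sign changed for onecut, which did not pass and ranged from -0.49 to 0.07 with an array left out. The causes of these changes were not tested. Fits without 1 Control array gave 2316 to 3249 calls, and fits without 1 Ab ME array gave 1400 to 1426. Of 1820 recomputed list counts, 1292 stayed within 1.5 times the main count. Signal over background cannot be read from these values, so the floor is only descriptive. With 1.53 in its place, lower calls above it in Control only numbered 272 instead of 185.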

Other observations

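Lists not yet described held single genes that passed. Of 14 genes for sex and dosage compensation 3 rose and 2 fell. Clamp, which helps target the dosage compensation complex, read 5.67, 5.64 and 5.59 in Control and 6.71, 6.79 and 6.72 in Ab ME (1.10, SE 0.15, limma adjusted p = 0.00296). The brightest probe set of msl-3, a subunit of that complex, read 7.02, 6.95 and 8.65 against 4.76, 5.08 and 5.45 (-2.44, adjusted p = 0.00813), but its other probe set differed by 0.98 without passing.

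Of 30 germline and testis genes, 14 of them below the floor in both groups, 5 (16.7%) rose and 2 (6.7%) fell. tud read 7.23, 6.91 and 7.63 in Control and 5.63, 5.81 and 5.70 in Ab ME (-1.54, SE 0.19, adjusted p = 0.00176). vret, known from the piRNA pathway of the gonad, rose by 2.28 (SE 0.39, adjusted p = 0.00718). piwi passed as higher (0.58, adjusted p = 0.044) with a Control mean below the floor. Of 40 genes for G proteins, cyclases, phosphodiesterases and phospholipase C 3 (7.5%) rose and 2 (5.0%) fell. The brightest Pde11 probe set rose by 1.68 (adjusted p = 0.00354) and differed by -0.05 at the other. Galphao, a G protein subunit abundant in neurons, fell by 0.80 (adjusted p = 0.0382, passed in 5 of 14 alternatives).

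Of 30 genes for cullin ubiquitin ligases CSN3, a subunit of the COP9 signalosome, rose from 4.81, 2.68 and 3.48 to 5.86, 6.09 and 5.90 (2.29, SE 0.45, adjusted p = 0.0124), and pic rose by 0.88. Chaperonin and prefoldin genes had 4 rises of 14, by 0.78 to 0.89, and 0 after another quantile normalization. Of 14 circadian genes, dco rose by 0.67 and Pdp1 by 0.94 from a Control mean below the floor.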
